A study of Oryctolagus cuniculus with 6 samples.

Results

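The mitochondrial chromosome was represented by 3 assembled loci among the 15280 loci listed in RNA-seq tables of rabbit skin. All loci placed on the chromosome named MT were taken, on both strands. The skin came from 30-day-old rabbits (Oryctolagus cuniculus). There were 3 libraries labelled Prss53-/-, called knockout here, and 3 labelled wild type. CRISPR/Cas9, the genome editing method, stands in the treatment field of all 6 libraries, also the wild-type ones. The labels used here give neither the edited sequence nor the number of founders. They do not say that replicates are separate animals, so p-values cover the spread of these libraries only, and that spread may be technical. The files pair no gene names with loci, so neither Prss53 nor markers of skin cell types were examined.

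Vertebrate mitochondrial DNA is a small circle that codes for subunits of the respiratory chain, the ribosomal RNAs of the mitochondrion and its transfer RNAs. Both strands are transcribed as long precursors, which are cut largely at the transfer RNAs, and the genes have no introns. A noncoding control region holds the promoters and the start of heavy-strand replication, and in rabbits it is known to carry tandem repeats. The files give an Ensembl ID for 2 of the 3 loci but no gene name or region type, so the loci are described by position and strand. No sequence of this chromosome was used here. Mammalian nuclear genomes hold copies of mitochondrial DNA, and the placing of reads that match both is not described in the labels.

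Levels are FPKM, fragments scaled to transcript length and to the mapped fragments of the library, as the authors deposited them. The level of a locus is the largest of its summed first-exon events, its summed last-exon events and its highest single event. An event or locus with no row in a library is called not listed and was computed as 0, although a missing row can also be a failed assembly. There are no counts, so depth is unknown. Libraries listed between 12405 and 12659 loci, with summed levels of 241136 to 267675 FPKM. Knockout replicate 3 stood apart. Its log2(FPKM + 1) values over 10899 loci correlated with those of the other knockouts at 0.896 and 0.901, against 0.947 between these and 0.948 to 0.952 among wild-type libraries (Pearson, across loci, which are not independent replicates). The fits and the mitochondrial share are therefore also given without it, while shares of single forms are given for each library.

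The main member was a plus-strand locus at the end of the listed sequence, MT:15760-17250, 1491 bases long, with the locus number XLOC_068609 and no Ensembl ID. It is called the terminal locus here, and it was listed in all 6 libraries. The second was a minus-strand locus of 112 bases at MT:17135-17246, ENSOCUG00000029117, listed in every wild-type library but no knockout library. The third, a plus-strand locus of 8631 bases at MT:5354-13984, ENSOCUG00000029112, was listed in knockout replicate 2 alone. The minus-strand locus lay inside the terminal locus on the opposite strand, and all 112 of its bases fell in the last exon there. Such nesting inside a locus of the other strand was found for 3.38% of all loci.

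The structure of the terminal locus was regular. Past the first 964 bases, from 15760 to 16723, each exon boundary short of the last base fell on a grid of 153 bases. The grid divides the stretch from 16724 to 17182 into 3 blocks of 153 bases, here called blocks 1, 2 and 3 (16724-16876, 16877-17029 and 17030-17182), and 68 bases follow, from 17183 to 17250. The short first exon ended before block 1 and the long first exon, of 1117 bases, ended after it. The 1 inner exon was block 2. The listed last exon, of 221 bases, began with block 3. The 4 introns between listed exon ends were 153 or 306 bases long, 1 or 2 blocks. Across all tables, 6415 exon patterns had an intron listed on each side, and in 3 of them both introns were within 2 bases of the exon's length. The terminal locus supplied 1 of these 3, with all 3 lengths exactly equal. The median upstream intron of all such patterns was 2372 bases, and 5.67% of their 12830 introns were no longer than 153 bases. Whether the 3 blocks are near-identical copies was not examined, and reads from such copies could not be assigned to 1 block.

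**Figure D1:**
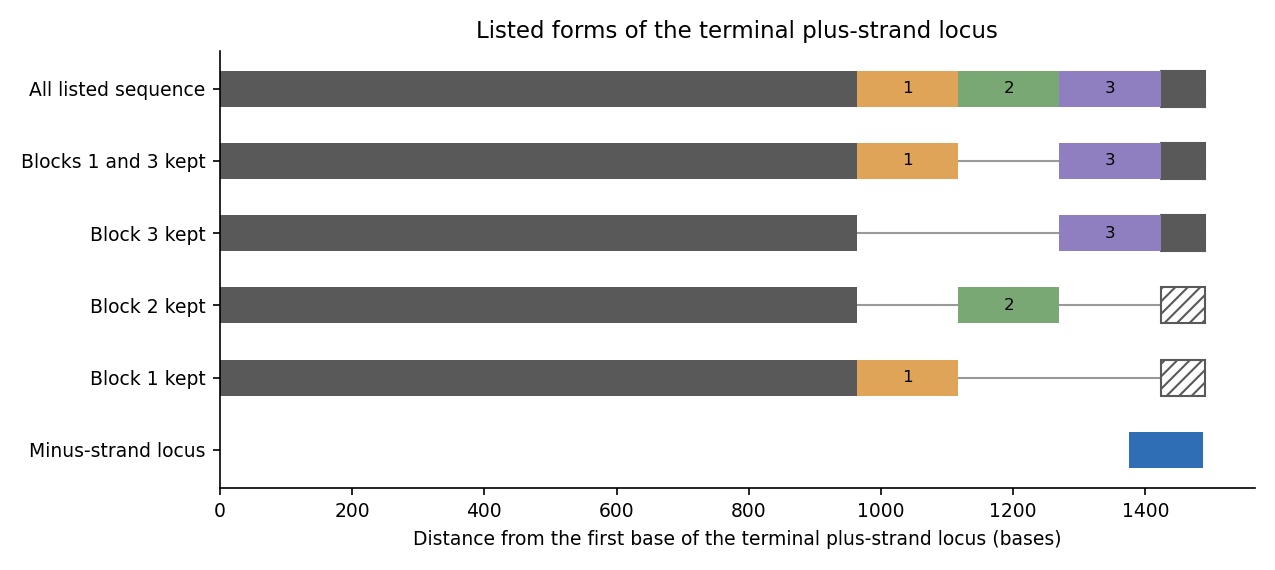
Exons of the terminal plus-strand locus by distance in bases from its first base, with blocks 1, 2 and 3 coloured and numbered, thin lines for introns, and the minus-strand locus below. Hatched ends mark a last part whose end is not listed and was drawn to the last base of the locus. Every boundary past the first 964 bases and short of the last base falls on the grid of 153 bases.

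The event values could be resolved into transcript forms. The FPKM of the last exon equalled that of the form without blocks 1 and 2 plus that of all long-first-exon transcripts that did not join to position 17183, within 1e-06 FPKM in all 6 libraries. The forms therefore kept blocks 1 and 3 (by subtraction), block 3 alone, block 2 alone or block 1 alone. A remainder began with the short first exon, lacked block 1 and had no listed event that shows its further course. The forms with 1 block are equally long, 1185 bases, if those that join to 17183 end at the last base of the locus, and the form with blocks 1 and 3 has 1338 bases. The last exon accounted for 55.7% to 66.0% of the first-exon FPKM, and no end was listed for the rest.

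The level of the terminal locus did not separate the genotypes. In knockout replicates 1, 2 and 3 it stood at 547, 433 and 57.4 FPKM, while the wild-type replicates, in the same order, had 275, 428 and 243 FPKM. The highest and the lowest library were both knockouts, so the knockout range enclosed the wild-type range. The mean was 346 ± 256 FPKM in knockout and 316 ± 99.1 FPKM in wild type (SD, n = 3 per group). In the fit over all 10899 loci the change on the log2(FPKM + 1) scale was -0.35 ± 0.80 SE (limma adjusted p = 0.853). Without knockout replicate 3 it was 0.67, again short of the threshold (limma adjusted p = 0.296, the lowest of 20 alternatives, which reached 0.972).

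Knockout replicate 3 was 9.52-fold below replicate 1 and 7.54-fold below replicate 2 at this locus, and 4.24-fold below the lowest wild-type library. Of 10427 loci listed in all libraries with a mean of at least 1 FPKM, 43 (0.412%) fell as far or further below both other knockouts in that library. The terminal locus was thus among the loci that lay furthest below the other knockouts in this library. It ranked 613th by level in knockout replicate 3, and between 50th and 127th in the other 5 libraries. The library quality weight that limma estimated over all loci was 0.226 for knockout replicate 3 and between 1.08 and 1.75 for the others, and its part in this difference was not tested.

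**Figure D2:**
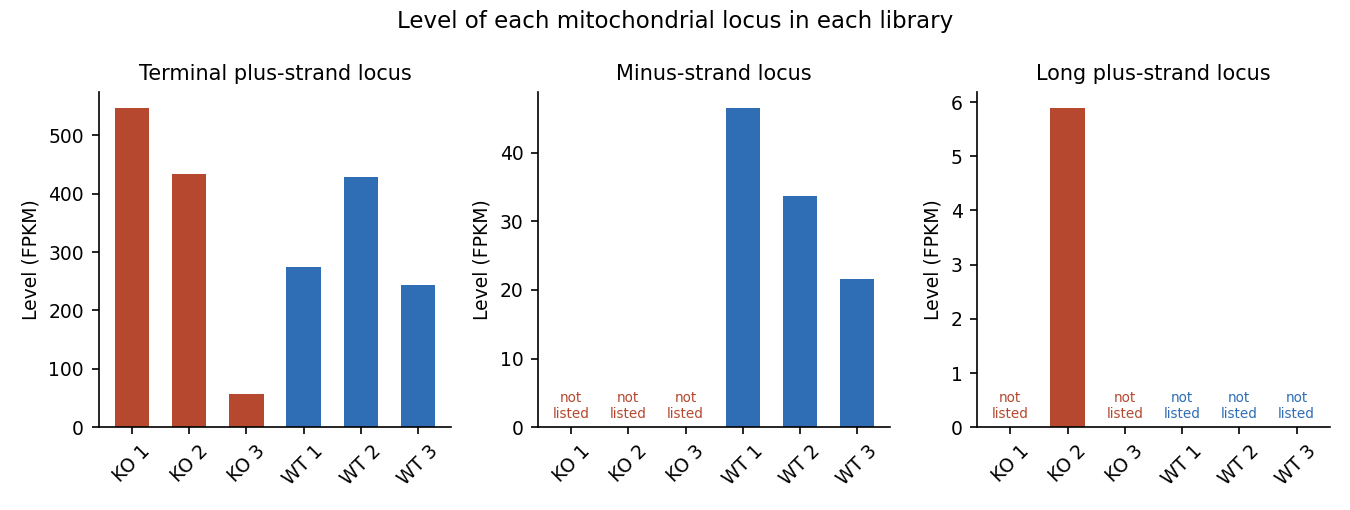
Level in FPKM of the 3 mitochondrial loci, 1 bar per library, on separate linear axes, with knockout (KO) in red and wild type (WT) in blue. The terminal locus ranges from 57.4 to 547 FPKM within the knockouts, the minus-strand locus has values in wild type alone, and the long locus has 1 value, 5.89 FPKM in knockout replicate 2.

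The forms of the terminal locus were compared as shares of its first-exon FPKM. The form with blocks 1 and 3 was the most abundant in each library, at 50.9%, 53.9% and 49.4% in the knockouts and 55.7%, 57.9% and 51.7% in wild type. These ranges overlap (51.4% ± 2.33 and 55.1% ± 3.14, SD, 3 libraries each; two-sided exact permutation p = 0.2). The smallest p that 3 against 3 libraries allow is 0.1.

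The other forms did not overlap between the genotypes, although the shares of 1 locus add up to 100% and are not independent. The form with block 2 alone held 27.3%, 24.5% and 32.9% in the knockouts and 11.8%, 10.9% and 11.7% in wild type. Its means were 28.2% ± 4.24 and 11.5% ± 0.518, and each knockout was above each wild-type library. The form with block 3 alone held 13.0%, 12.1% and 12.3% in the knockouts, was not listed in wild-type replicate 1, and held 6.92% and 7.42% in wild-type replicates 2 and 3. The remainder was smaller in the knockouts, at 8.78%, 9.43% and 5.44%, than in wild type, at 22.7%, 14.4% and 19.7%. For each of these 3 shares the exact two-sided permutation p was 0.1. Forms were not resolved at other loci, so these shares have no background of their own. Among the 8260 first-exon shares tested, a different measure, 9.10% had groups that did not overlap. The split between single blocks assumes that reads can be assigned to 1 block, which was not examined. The forms with 1 block together held 40.3%, 36.6% and 45.2% in the knockouts and 21.6%, 27.7% and 28.6% in wild type, with forms not listed taken as 0.

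The form with block 1 alone was listed in each wild-type library and in no knockout. It had 26.9, 42.4 and 23.0 FPKM in wild type, a steady 9.79%, 9.89% and 9.46% of the locus (9.71% ± 0.221, SD, n = 3; exact permutation test, two-sided, p = 0.1). The knockout values are 0 because rows are missing, so this p restates the listing and is no separate support for a difference. Over all tables, 1.04% of the events were listed by every wild-type library but by no knockout. In knockout replicates 1 and 2, at 547 and 433 FPKM, the locus itself was above the level of each wild-type library, the highest of which had 428 FPKM. In knockout replicate 3 it was below. Whether level or depth bears on the missing rows was not tested. The form with block 1 alone and the minus-strand locus were listed in the same 3 libraries.

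**Figure D3:**
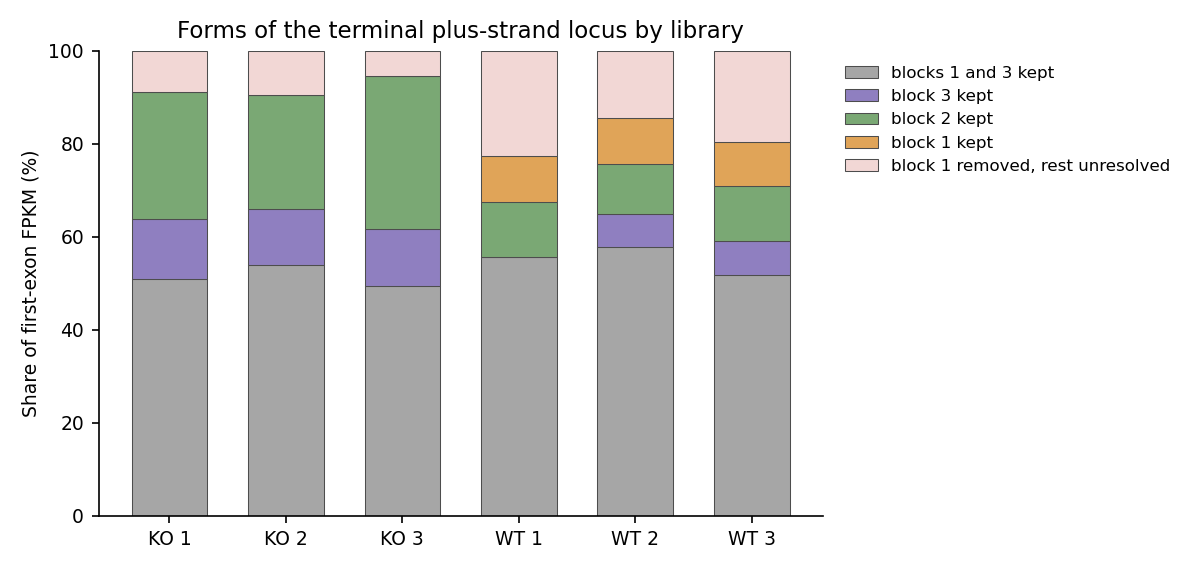
Share in percent of the first-exon FPKM of the terminal locus held by each form, 1 stacked bar per library (KO, knockout; WT, wild type). Block 2 alone fills 24.5% to 32.9% of the knockout bars and 10.9% to 11.8% of the wild-type bars, and block 1 alone appears in wild type only.

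Measures that can be set against the whole table also separated the libraries, without passing the adjustment. They are built from the same events as the forms, so they are no separate support for the form shares. The short first exon carried 49.1%, 46.1% and 50.6% of the first-exon FPKM in the knockouts and 34.5%, 32.2% and 38.8% in wild type. The knockout libraries were all above the wild-type libraries, by 13.4 ± 3.35 SE percentage points on average (limma on shares over 8260 first exons, adjusted p = 0.316, unadjusted p = 0.00844). Groups did not overlap at 9.10% of those first exons, and 0.630% passed. Without knockout replicate 3 the difference was 12.4 points (limma adjusted p = 0.560, with 0.176 to 0.673 over the 8 alternatives).

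Inclusion of the inner exon was taken as the FPKM that includes block 2 over that plus the 2 listed junctions that skip it. It was 67.8%, 66.9% and 72.7% in the knockouts and 54.7%, 39.3% and 41.0% in wild type. The skipping junction from the long first exon was not listed in any knockout, and that from the short first exon not in wild-type replicate 1. Both were computed as 0 there. Again the groups did not overlap, a separation that rests partly on these missing rows. The difference was 24.2 ± 5.14 SE percentage points (limma on shares over 3323 exons, adjusted p = 0.182, unadjusted p = 0.00344). Groups did not overlap at 8.40% of those exons, and 0.602% passed. Without knockout replicate 3 the difference was 22.4 points (limma adjusted p = 0.368, with 0.112 to 0.498 over the 8 alternatives). The form with blocks 1 and 3 also lacks block 2, but no event of its own lists that junction, and it is not in this measure.

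**Figure D4:**
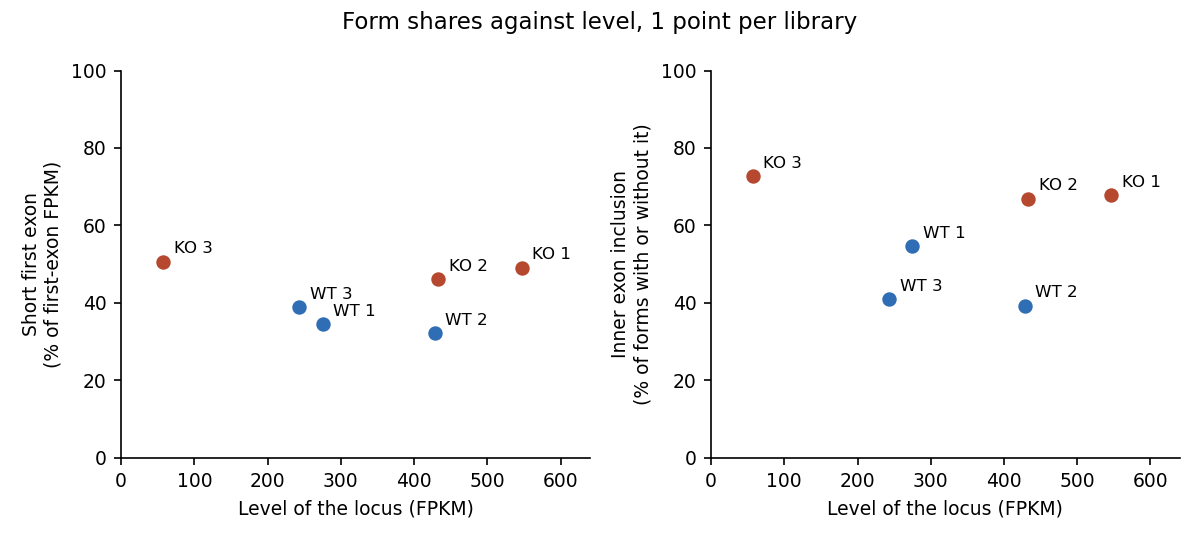
Share of the short first exon (left) and inclusion of the inner exon (right), in percent, against the level of the terminal locus in FPKM, 1 point per library (KO, knockout; WT, wild type). Knockout replicate 3, at 57.4 FPKM, has shares of 50.6% and 72.7%, next to those of knockout replicates 1 and 2 at 547 and 433 FPKM.

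The minus-strand locus was listed in wild type alone. Wild-type replicates 1, 2 and 3 had 46.5, 33.6 and 21.6 FPKM of it. No knockout listed it, so no fold change is given. Of all 15280 loci, 85 (0.556%) had this listing. In 4 of the 85, this locus included, the wild-type mean was at least 33.9 FPKM, its own mean, while the median of the 85 was 0.673 FPKM. FPKM is scaled to length and this locus has 112 bases, so few fragments can give a high level. It met the filter of the fit over all loci only through its wild-type libraries, and the knockout values are 0 with no spread because rows are missing. Its limma adjusted p of 0.000482 therefore restates this listing and is no separate support for a difference. In that fit 0.440% of the loci were called lower in knockout and 0.587% higher, and 16.7% were lower with groups that did not overlap.

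Relative to the terminal locus around it, the minus-strand locus was at 16.9%, 7.85% and 8.89% in wild-type replicates 1, 2 and 3. These are ratios of FPKM between loci of 112 and 1491 bases, not shares of fragments. The order of the minus-strand locus across the wild-type libraries differed from that of the terminal locus, which was highest in replicate 2. The minus-strand locus made up 14.5%, 7.28% and 8.16% of the FPKM of the listed mitochondrial loci there (9.97% ± 3.92, SD, n = 3; exact permutation test against 0 in the knockouts, two-sided, p = 0.1). This p, too, restates the missing knockout rows and is no separate support for a difference. The locus had a first-exon event but no last-exon event, as 6.23% of all loci did. The sources used here do not say that the strand of reads was recorded, and without it reads of this locus and of the last exon it overlaps cannot be told apart.

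The long plus-strand locus was listed at 5.89 FPKM in knockout replicate 2 and in no other library, close to the middle of that library's loci (rank 6201 of 12649). It had a first exon of 8381 bases, from 5354 to 13734, and a last exon of 69 bases, from 13916 to 13984, with 181 bases between them. The first-exon and the last-exon event had the same FPKM. Only 28 of 21924 first exons were at least as long, and the median was 243 bases. Between 271 and 373 loci were listed in 1 library alone, and 317 (2.07% of all loci) in knockout replicate 2 alone. Of these 317, 13 had at least the level of the long locus, which is 1 of the 13, and their median was 0.459 FPKM. It reached 1 FPKM in 1 library and was therefore not among the loci tested.

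Together the 3 listed loci carried a small share of each library. Of the 16 locus numbers from the first to the last mitochondrial locus, 13 have no row. The share therefore covers the listed loci only and is no measure of all mitochondrial RNA. The 3 loci made up 0.217%, 0.165% and 0.0214% of the summed FPKM in the knockouts and 0.121%, 0.185% and 0.110% in wild type. The means were 0.134% ± 0.101 and 0.139% ± 0.0404 (SD, 3 libraries each; two-sided exact permutation p = 1), and knockout replicate 3 was the lowest library. Without it the knockout mean was 0.191%, above the wild-type mean instead of below it (exact permutation test, two-sided, p = 0.4). The number of mitochondrial loci listed was 1, 2 and 1 in the knockouts and 2 in each wild-type library (exact permutation test, two-sided, p = 0.4).

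Loci elsewhere that resembled the terminal locus across the 6 libraries were taken by Pearson correlation of log2(FPKM + 1), from 7631 loci on chromosomes listed in all libraries, a choice made after seeing the data. The closest were minus-strand chromosome 7 from 130144921 to 130156029 (r = 0.995), plus-strand chromosome 7 from 111613703 to 111698951 (r = 0.991) and minus-strand chromosome 2 from 74283046 to 74293517 (r = 0.990), in the authors' coordinates with no build attached. All 3 were lowest in knockout replicate 3, at 6.92, 3.28 and 6.15 FPKM, where the terminal locus is lowest too. The 6 points share their libraries, and 313 loci reached an r of at least 0.9.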

How the data were processed

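Trizol was used for extraction and the NEBNext Ultra RNA kit for the libraries, per the labels' protocols. Bcl2fastq 2.17.1.14 and cutadapt appear in the submitters' processing notes. No aligner, assembler, event caller or build is named there or in the labels. The deposited tables hold, per the file headers, 1 FPKM value per transcript event, as the authors computed it. Repeated rows of an event were used once. Positions are 1-based as in the files.

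Loci were kept apart. A locus was tested if it reached 1 FPKM in 3 libraries or more. The test was limma 3.58.1 (R 4.3.3) on log2 of FPKM plus a pseudocount of 1, with genotype as the single term, a trend of variance on mean, and Benjamini-Hochberg adjustment over all 10899 loci at 0.05. Shares of first exons and of exon inclusion, added after seeing the data, were tested the same way without the trend, where the summed FPKM was at least 1 in every library. The fits were tested on simulated data without missing rows, and with planted share changes larger than the differences reported here. That test therefore does not cover the results above. Single values per library were compared by exact permutation tests (scipy 1.17.1). All mitochondrial loci are described. The members, lists and tests were chosen with earlier results of these data known. Lists of named mitochondrial and skin genes could not be used without gene names. Alternatives covered pseudocount, filters, scaling, locus value, library weights, the replicate number as a block and each library left out.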

Additional observations from a re-analysis of the deposited data

How the results depend on the processing

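The terminal locus passed under none of its 20 alternatives (limma adjusted p 0.296 to 0.972). The minus-strand locus had limma adjusted p of 0.000175 to 0.00575 in the 16 that could test it, but all keep its missing knockout rows at 0, so they say nothing of its stability. The log2 change of the terminal locus lay between -0.95 and 0.67 with a library left out, reversed without knockout replicate 3 (0.67) and with library quality weights (0.44). Mitochondrial loci called were 0 among loci listed in all 6 libraries, where the minus-strand locus is not tested, and 0 to 1 with a library left out. The 0 arose only without a wild-type replicate, where the filter of 3 libraries also leaves the minus-strand locus untested. Over all loci, 112 were called in the reported fit, 44 with a mean of at least 5 FPKM, 41 among loci listed in all 6 libraries, 269 with quality weights and 16 to 85 with a library left out. Without wild-type replicate 1, 2 or 3 and with a filter of 2 libraries there were 38, 42 and 48. The minus-strand locus was the 1 mitochondrial locus called each time, with its missing knockout rows again at 0. The cause of these changes was not tested.

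The share of the listed mitochondrial loci in the summed FPKM, knockout minus wild type, was -0.00422 percentage points. It ranged from -0.0455 to 0.0523 with a library left out, reversed without knockout replicate 3 (0.0523) and wild-type replicate 2 (0.0189). With a library left out, the minus-strand share ranged from -11.3 to -7.72 points and the number of loci from -1 to -0.5. With the highest single event the minus-strand share was -14.5 points. All of these keep the missing knockout rows of the minus-strand locus at 0. First-exon shares called were 52, 34 with at least 5 FPKM and 11 to 36 with a library left out; for exon inclusion these were 20, 13 and 8 to 14. At the terminal locus the differences stayed between 11.9 and 15.2 points (first exon) and 21.3 and 29.0 points (inner exon). The inner-exon alternatives all kept missing junction rows at 0.

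Same-numbered libraries deviated from their group means with correlations of -0.00994, 0.128 and 0.0425, and the labels state no pairing. With the number as a replicate block, 88 loci were called, with 0 first-exon shares (503 at an unadjusted p under 0.05) and 3 exon inclusion shares. Depth is unknown, so the counting error of a missing row cannot be given.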

Other observations

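Of the 16 locus numbers that the files give from the first to the last mitochondrial locus, 3 have a row in the tables used here. Of the 24 event numbers in the same stretch, 10 have a row.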
